A study of Mus musculus with 18 samples.

Results

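The 12-month comparison set 5 libraries labelled B6.EDA+/+ against 5 labelled C57BL/6J control, 10 of the 18 libraries of the series, all from mouse optic nerve head. They were chosen by their titles alone, and all genes in the deposited expected counts were examined. B6.EDA+/+ mice carry, on the C57BL/6J background, a fibronectin gene (Fn1) engineered so that its transcripts always include the extra domain A (EDA) exon. The control strain C57BL/6J has the unmodified gene, which includes the exon variably. No treatment is named for either group, and both were 12 months of age. The study looked for damage to retinal ganglion cells and for fibrotic and inflammatory genes at the place where their axons leave the eye. The allele is carried in every cell of the animal, and the tissue was excised by laser capture microdissection and not sorted by cell type. Fewer cells of a type and less RNA per cell therefore cannot be told apart in any value below. Sex, litter and batch are not given in the labels, and the numbers in the titles of the 2 groups do not interleave, so any order of handling that they reflect and the genotype cannot be told apart. Nor do the labels say whether each library is a separate animal, so p-values cover only how these libraries vary, in part perhaps for technical reasons.

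As background, the optic nerve head holds astrocytes that ensheathe bundles of unmyelinated axons, together with microglia, vessels and connective tissue, and myelin begins behind it. Fibronectin is a matrix protein that cells grip through integrins. On the inside, integrins are tied to actin filaments by adaptor proteins such as talin, vinculin and alpha-actinin, which gather in focal adhesions. The EDA segment is known as a ligand of integrins and as an activator of Toll-like receptor 4, encoded by Tlr4.

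The exon that defines the genotype is shown here with the ends of its neighbours, because it is what the genotype alters. Capitals mark the EDA exon, 270 nt of coding sequence on the minus strand (chr1:71603660-71603929, GRCm38), and lower case marks the last 15 and first 15 bases of the exons joined to it. The second line is the junction of isoforms that skip the exon. Both were read from the GENCODE M21 transcripts.
Fn1 with the EDA exon: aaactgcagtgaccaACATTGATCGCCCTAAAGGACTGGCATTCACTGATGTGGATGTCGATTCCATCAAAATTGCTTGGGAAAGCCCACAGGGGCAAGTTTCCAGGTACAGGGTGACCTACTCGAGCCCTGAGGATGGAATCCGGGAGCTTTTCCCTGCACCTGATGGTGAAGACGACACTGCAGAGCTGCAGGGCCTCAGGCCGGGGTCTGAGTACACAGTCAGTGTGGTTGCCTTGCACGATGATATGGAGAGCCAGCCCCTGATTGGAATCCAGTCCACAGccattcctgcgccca
Fn1 without the EDA exon: aaactgcagtgaccaccattcctgcgccca

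The estimated share of the EDA exon did not separate the labels. Of the TPM of the 8 Fn1 isoforms that span its position, the 4 isoforms holding it made up 8.23%, 47.4%, 58.5%, 0% and 0% in EDA-labelled replicates 1 to 5. In control-labelled replicates 1 to 5 the share was 0%, 0%, 0%, 59.5% and 96.2%. The 2 highest shares were both in control-labelled libraries, each group held libraries at 0%, and the groups overlapped. The means were 22.8% ± 28 and 31.1% ± 44.6 (SD, n = 5 each), with a two-sided exact permutation p of 0.762. These shares are estimates from RSEM on 185.64 to 1485 reads assigned to the spanning isoforms. Only reads that touch the exon or the junction that skips it show directly whether it was included. Their number was not analysed here, so no limit is given for a share of 0. The 4 isoforms of each kind differ from each other elsewhere, so reads away from the exon may also have shaped the estimates. How far the assignment of reads to isoforms shaped the shares was not tested. Each direction below is therefore given as one between labels.

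**Figure D1:**
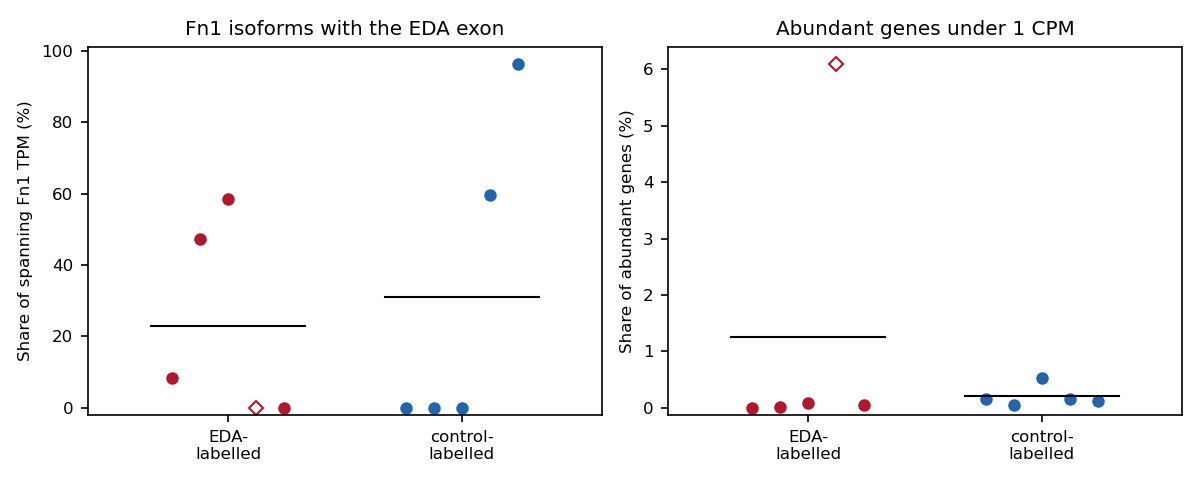
Share of Fn1 isoforms holding the EDA exon (left, percent of the TPM of spanning isoforms) and share of abundant genes that fell under 1 CPM (right, percent), one point per 12-month library with the group mean as a line and EDA-labelled replicate 4 as an open diamond. Both groups hold shares of the exon at 0, and replicate 4 stands alone at 6.09% on the right.

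One library stands apart. EDA-labelled replicate 4, title number 20403, had a level under 1 CPM (counts scaled to library size) at 265 of 4351 genes (6.09%) whose median over the other 9 libraries was at least 20 CPM. The same loss touched 0 to 23 genes (0% to 0.525%) in each of those 9. Its median correlation across genes with its own group was 0.5, against 0.821 to 0.899 for the others. It was the highest of the 10 libraries at 2970 genes and the lowest at 3278, of 15118 tested. Results are therefore given for 5 against 5 libraries and for 4 against 5, without it. The 12-month libraries held 13097498 to 18488733 expected counts. An abundant transcript without a symbol, ENSMUSG00000119584, took 11.1% ± 5.34 of the reads under the EDA label and 20.2% ± 8.33 under the control label (SD, n = 5 each, exact permutation p = 0.0873, adjusted 0.233 over 8 library measures). In each group 2 libraries had abundant Xist and Y-linked RNA near 0. Gfap, the intermediate filament of astrocytes, was at 5350 to 29490 CPM, and 10 tested photoreceptor genes summed to 5.86 to 35.4 CPM, so the profile was that of glial tissue with little neighbouring retina. Every pair of libraries in a group differed by more than sampling noise (lowest chi-square per degree of freedom 39.2).

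No gene passed adjustment over all genes with 5 against 5 libraries. The quasi-likelihood test in edgeR called 0 of 15118 genes (0%) at a Benjamini-Hochberg adjusted p under 0.05. At an unadjusted p under 0.05 there were 689 genes, against 756 that chance alone gives. Of these, 448 (2.96% of all tested) were higher and 241 (1.59%) lower in EDA-labelled libraries. All 5 EDA-labelled libraries lay above all 5 controls at 127 genes (0.84%) and below them at 64 (0.423%). Without replicate 4, edgeR called 1 of 14961 genes (0.00668%), Actn1, which was higher. Then 203 genes (1.36%) lay above all controls and 85 (0.568%) below them. Groups of 4 against 5 libraries separate by chance more often than 5 against 5. An unadjusted p under 0.05 was reached without replicate 4 by 342 higher genes (2.29%) and 209 lower ones (1.4%). In both settings 426 genes had such a p in the same direction, 61.8% of the 689 and 77.3% of the 551. The median log2 fold change over all genes was -0.01 in both.

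Actn1 encodes alpha-actinin 1, which crosslinks actin filaments and anchors them at adhesions. It was measured at 130, 164, 137, 204 and 141 CPM in EDA-labelled replicates 1 to 5, and at 58.9, 51.6, 48.7, 70.7 and 58.0 CPM in the controls. The lowest EDA-labelled library was well above the highest control, so the groups did not overlap, and replicate 4 was the highest of all. The log2 fold change was 1.43 ± 0.24 (SE) with an adjusted p of 0.0936 in edgeR. Without replicate 4 the fold change was smaller, at 1.31 ± 0.20, with a smaller SE, and the gene passed the threshold (edgeR, adjusted p = 0.0424). Since the groups did not overlap, any split of the libraries had to keep this direction. The difference of mean log2 CPM was 1.62 within libraries abundant in Xist and 1.29 within those with Y-linked RNA. Over 22 alternative settings the fold change ran from 1.29 to 1.51 and the gene was called in 6. In edgeR its adjusted p ranged from 0.0424 to 0.998, the highest when only 12-month libraries were fitted.

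Other genes of adhesions and the actin cytoskeleton leaned the same way without passing adjustment. Of 35 genes for focal adhesion and actin crosslinking proteins, 28 lay above 0, 10 had an unadjusted p under 0.05 and all 10 of these were higher, where 2.96% of all genes were. Without replicate 4 there were 8 such members, all higher, where 2.29% of all genes were. Their median log2 fold change was 0.37, against -0.01 over all genes, and 0.28 without replicate 4. Leaving out any single 12-month library gave medians of 0.28 to 0.45. Actn1, Zyx and Akap12 had been seen in earlier results of these data. The 32 members other than these had a median of 0.32, and 7 of them had an unadjusted p under 0.05, all higher. Without replicate 4 that number was 5. The list score, which averages over members the log2 CPM relative to each gene's 10-library mean, was -0.04 to 0.32 in EDA-labelled and -0.40 to 0.00 in control-labelled libraries, so the groups overlapped. Of the 35 members 1, Actn1, was above all controls in every EDA-labelled library, where 0.84% of all genes were.

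Zyx encodes zyxin, which moves to adhesions and stress fibres under tension. It stood at 64.1, 79.0, 80.2, 124 and 31 CPM in EDA-labelled and 40.3, 36.7, 20.1, 33.3 and 15.2 CPM in control-labelled replicates 1 to 5. EDA-labelled replicate 5 lay inside the control range and the other 4 above it. The log2 fold change was 1.38 ± 0.37 (unadjusted p = 0.00123 in edgeR), and 1.13 ± 0.35 without replicate 4.

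Vcl, for vinculin, which links talin to actin, showed the same split within the EDA-labelled group. Its values were 1062, 1001, 1336, 1425 and 513 CPM, against 517, 463, 454, 597 and 641 CPM in the controls. Replicate 5 again lay with the controls, and the fold change was 1.00 ± 0.28 with all libraries and 0.87 ± 0.25 without replicate 4. Actb, cytoplasmic beta-actin itself, ran at 2384, 2791, 3504, 5425 and 1455 CPM against 1595, 1533, 1572, 1605 and 1266 CPM, with replicate 5 among the controls. It was 1.04 ± 0.29 with all libraries and 0.74 ± 0.22 without replicate 4. Akap12, a scaffold for kinases at the cell cortex, was at 124 to 195 CPM in replicates 1 to 4 while replicate 5 had 64.2 CPM, against 46.5 to 72.8 CPM in controls (1.27 ± 0.34).

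Palld, for palladin, which organises actin bundles, was at 981, 1339, 1941, 766 and 736 CPM against 598, 437, 703, 564 and 452 CPM. All EDA-labelled libraries lay above all controls, and the fold change was 1.06 ± 0.33 with replicate 4 and 1.18 ± 0.32 without. Flnc, a filamin that crosslinks actin and was chosen after its values were seen, was also without overlap, at 80.2 to 178 CPM against 27.6 to 69.8 CPM (1.30 ± 0.40). The tropomyosins Tpm1 (1.13 ± 0.41) and Tpm3 (0.95 ± 0.39), which coat actin filaments, and Coro1b (1.13 ± 0.46), a coronin of the cell edge, did not overlap either and were chosen in the same way. A lack of overlap in genes chosen with their values known adds no evidence. Without replicate 4, Coro1b was at 0.69 ± 0.43 (unadjusted p = 0.123 in edgeR).

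Signalling members of the list were higher by less. Bcar1, an adaptor that is phosphorylated when adhesions are stretched, was at 0.95 ± 0.32, Ilk, the integrin-linked kinase, at 0.69 ± 0.30, and Ptk2, focal adhesion kinase, at 0.79 ± 0.35. The highest of the 10 libraries was replicate 4 for each, at 354, 174 and 548 CPM. Without it Bcar1 was at 0.67, Ilk at 0.58 and Ptk2 at 0.51, with unadjusted p of 0.0229, 0.057 and 0.123 in edgeR. Pdlim1 and Pdlim7, which bind alpha-actinin or tropomyosin, were at 0.80 ± 0.31 and 0.80 ± 0.35, and replicate 4 was the lowest EDA-labelled library for both, at 20.6 and 29.1 CPM. Members near or below 0 included the paxillin gene Pxn (0.00 ± 0.59), Lpp (-0.35 ± 0.25) and Enah (-0.36 ± 0.29), each unadjusted p over 0.05. Talin genes were at 0.32 ± 0.35 (Tln1) and 0.37 ± 0.65 (Tln2). Without replicate 4, Tln1 was at 0.18, Tln2 at 0.20, Lpp at -0.21 and Pxn at -0.08.

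**Figure D2:**
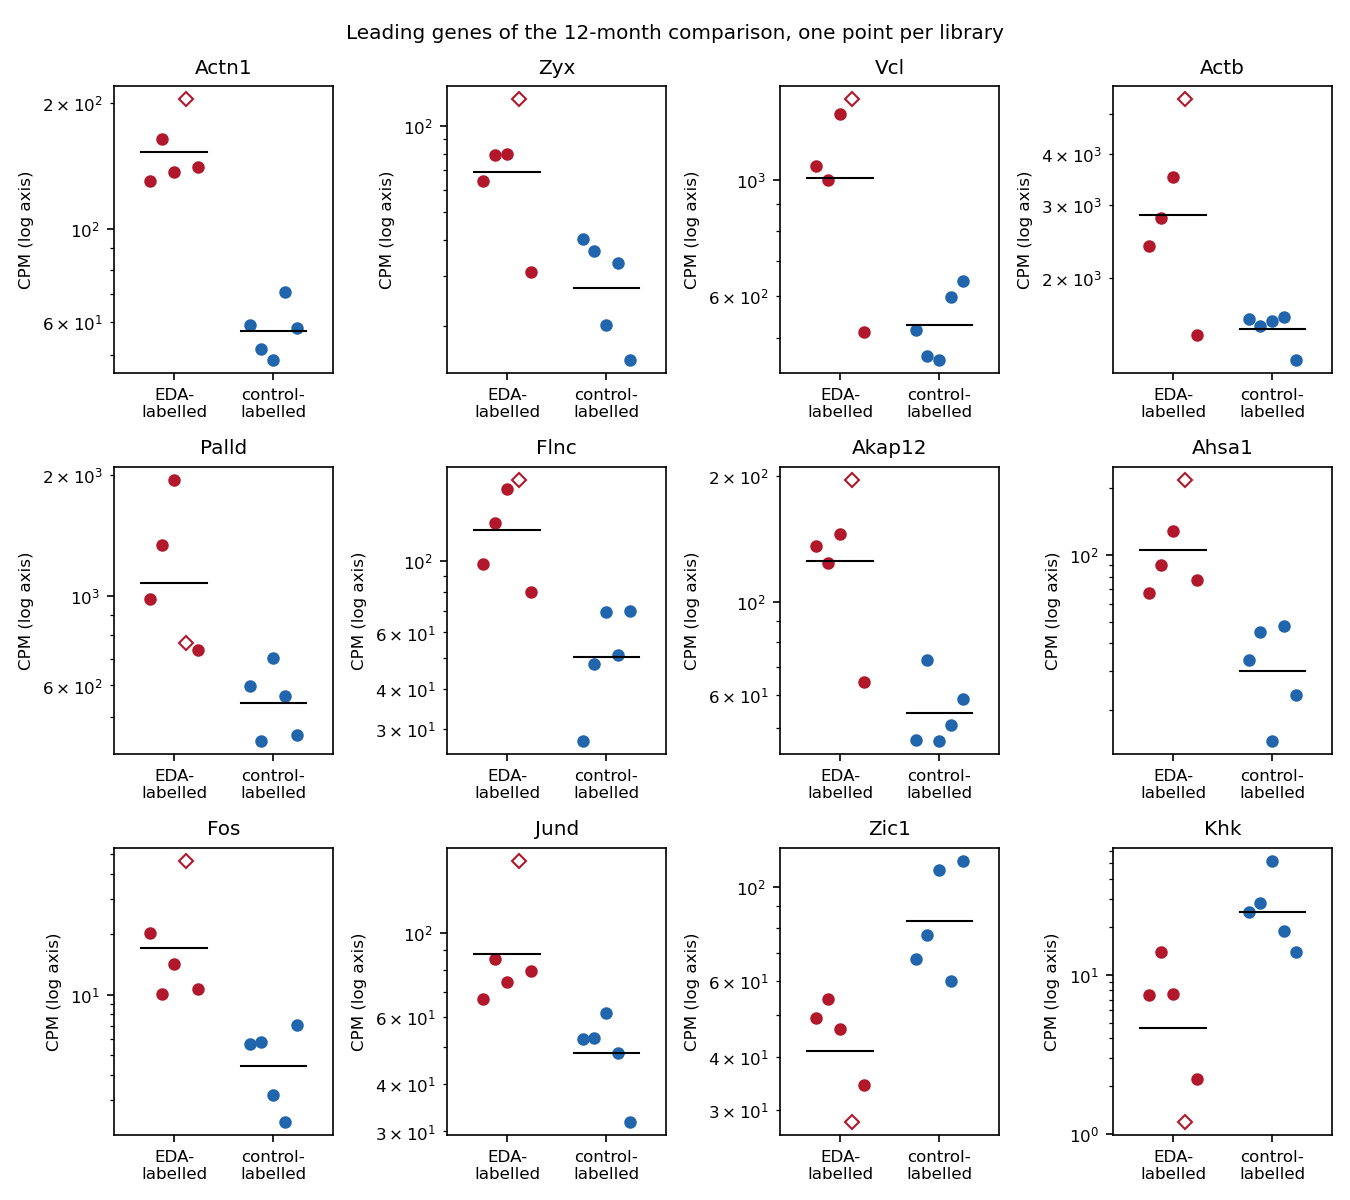
CPM (log axes that differ by panel) of 12 genes in the 12-month libraries, one point per library, with a line at the mean of the log values and EDA-labelled replicate 4 as an open diamond. Actn1, Palld, Flnc, Ahsa1, Fos, Jund and Zic1 do not overlap between the labels, while 1 EDA-labelled library lies among the controls for Zyx, Vcl, Actb and Akap12.

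Promoters of 3 of these genes are shown because actin and adhesion genes are known targets of serum response factor, which binds the CArG box, and of AP-1, which binds TGANTCA. Each line holds the 250 bases before the start site in RefSeq on GRCm38.p6, and capitals mark a CArG box in Vcl and TGANTCA in Zyx. Actn1 lies at chr12:80260364-80260613 on the minus strand, Vcl at chr14:20929148-20929397 and Zyx at chr6:42349578-42349827, both on the plus strand.
Actn1: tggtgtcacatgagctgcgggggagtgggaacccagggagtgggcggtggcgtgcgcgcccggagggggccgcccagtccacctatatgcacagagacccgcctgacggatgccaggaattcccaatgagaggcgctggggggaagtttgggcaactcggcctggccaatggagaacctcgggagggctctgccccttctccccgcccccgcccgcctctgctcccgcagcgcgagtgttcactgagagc
Vcl: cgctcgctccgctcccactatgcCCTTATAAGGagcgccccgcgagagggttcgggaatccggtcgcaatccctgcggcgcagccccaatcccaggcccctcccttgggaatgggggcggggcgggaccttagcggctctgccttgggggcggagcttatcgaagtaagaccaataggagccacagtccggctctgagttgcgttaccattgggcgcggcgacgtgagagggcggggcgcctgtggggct
Zyx: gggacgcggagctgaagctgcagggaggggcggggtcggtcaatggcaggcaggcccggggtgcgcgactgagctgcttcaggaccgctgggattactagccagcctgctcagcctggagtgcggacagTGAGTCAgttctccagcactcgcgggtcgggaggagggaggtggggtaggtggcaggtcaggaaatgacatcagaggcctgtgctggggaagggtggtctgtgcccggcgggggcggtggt
Of the 22 genes among the leading higher genes and the 10 list members, 16 matched the promoter table. A CArG box was in 1 of the 16 (Vcl) and in 1.47% of all 32851 promoters, and TGANTCA in 3 (Palld, Rcan1 and Zyx) and in 6.75%, counting both strands. TGACGTCA, the cyclic AMP response element, was in 2 (Mcam and Rcan1) and in 1.55%. These matches describe the letters only.

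Receptors and membrane proteins were among the leading genes too. Pvr, an adhesion receptor of the nectin family, was at 36.1 to 89.5 CPM against 12.8 to 34.7 CPM, with no overlap (1.34 ± 0.37). Mcam, an adhesion molecule of vessel walls, was at 39.8 to 62.5 CPM in replicates 1 to 4, 22.7 CPM in replicate 5 and 9.69 to 30.6 CPM in controls (1.43 ± 0.40). Itga5, the fibronectin receptor subunit alpha 5, was at 184, 185, 402, 25.9 and 76.8 CPM against 60.1, 97.0, 41.2, 36 and 103 CPM. Replicate 4 was the lowest of all, so the fold change was 1.37 ± 0.56 with it and 1.65 ± 0.48 without. Its partner Itgb1 was at 3.59 CPM in replicate 4 and 76.5 to 128 CPM in the other 9, with a fold change of -0.23 ± 0.49, or 0.08 without replicate 4. Of 22 integrin genes 10 lay above 0, with a median of -0.26 that went to -0.13 without replicate 4 and to 0.31 without control replicate 5. Layn, a hyaluronan receptor chosen after its values were seen, was at 19.8 to 47.3 CPM against 0.0654 to 8.15 CPM (2.47 ± 0.85).

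Genes of contractile cells varied widely between EDA-labelled libraries. Cnn1, for calponin of smooth muscle, was at 469, 947, 1695, 26.9 and 341 CPM against 142, 237, 162, 103 and 87.2 CPM. Replicate 4 was the lowest of the 10 and the other 4 were above all controls, at 2.56 ± 0.60 without it and 2.25 ± 0.74 with it. Acta2, smooth muscle actin, was at 151 and 71.0 CPM in replicates 3 and 4, 13.1 to 35.9 CPM in the others and 8.18 to 26.2 CPM in controls (1.95 ± 0.66). Of 13 pericyte and smooth muscle markers 7 lay above 0, with a median of 0.59 that went to -0.07 without EDA-labelled replicate 2. Their summed level was 249 to 1996 CPM against 185 to 390 CPM. Cnn1 alone made up 1695 of the 1996 CPM in EDA-labelled replicate 3 and 947 of 1118 CPM in replicate 2. The defining markers Des and Myh11 were at 0 in 6 and 4 of 10 libraries and reached 2.93 and 8.11 CPM. Pdgfrb was at -0.21 ± 0.61 and Rgs5 at -0.94 ± 0.50. The part of these cells in the actin genes was not tested.

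The sensor and targets tied to EDA fibronectin did not pass. Fn1 was at 16.8 to 51.6 CPM in EDA-labelled and 14.0 to 32.7 CPM in control-labelled libraries apart from control replicate 5, at 103 CPM (-0.31 ± 0.56). Without that control it was 0.43. Tlr4 was at 0.378 CPM in replicate 4, 12.0 to 46.5 CPM in the other EDA-labelled libraries and 4.57 to 31.8 CPM in controls, at 0.31 ± 0.68 and, without replicate 4, 0.63 ± 0.47. Of 28 genes that signal from TLR4 to NF-kappaB 14 lay above 0 (median 0.05, and -0.13 without EDA-labelled replicate 5), with Ikbkb, the kinase that releases NF-kappaB, at 0.87 ± 0.42. Without replicate 4, Ikbkb was at 0.80 ± 0.43 (unadjusted p = 0.0777 in edgeR). TGF-beta signalling, the main inducer of fibrosis, had 14 of 26 above 0 (median 0.01, and -0.09 without EDA-labelled replicate 2), and its repressor Ski did not overlap (165 to 232 against 130 to 150 CPM, 0.49 ± 0.22). Targets of YAP, a sensor of tension, had 7 of 16 above 0 and none at an unadjusted p under 0.05. Their median of -0.15 went to -0.07 without replicate 4 and to 0.14 without control replicate 3.

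Matrix genes gave no single direction. Fibrillar collagens had a median of 1.10 with 8 of 10 above 0, and of 0.59 without replicate 4. That library held 33.3 CPM of Col1a1 and 313 CPM of Col5a1, against at most 13.1 and 146 CPM in the other 9, and no member reached an unadjusted p under 0.05. Enzymes that crosslink or remodel matrix had 13 of 27 above 0 (median -0.02, and 0.08 without replicate 4), among them the protease Adamts1 at 1.34 ± 0.45 and the collagen prolyl hydroxylase P4ha1 at 0.68 ± 0.32. Without replicate 4, P4ha1 was at 0.43 (unadjusted p = 0.141 in edgeR). Basement membrane genes had 9 of 21 above 0 (median -0.15, and 0.23 without control replicate 5), with Hspg2, for perlecan, at 0.72 ± 0.33 and 0.38 ± 0.28 without replicate 4. Matrix glycoproteins had 15 of 31 above 0 (median -0.05, and 0.06 without EDA-labelled replicate 5).

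Chaperone genes were led by Ahsa1, the activator of the HSP90 ATPase. It stood at 67.3, 89.8, 128, 218 and 77.3 CPM in EDA-labelled and 33.6, 44.8, 14.5, 48.0 and 23.4 CPM in control-labelled replicates 1 to 5. The groups did not overlap, and the fold change was 1.82 ± 0.46 (unadjusted p = 0.000681 in edgeR) or 1.46 ± 0.42 without replicate 4. Of 26 HSP90 and cytosolic chaperone genes 15 lay above 0 and 4 had an unadjusted p under 0.05, all higher, where 2.96% of all genes were, with a median of 0.23. Without replicate 4 there were 2 such members and the median was 0.11. With all libraries the 3 besides Ahsa1 were the inducible HSP90 gene Hsp90aa1 (0.75 ± 0.31) and the stress-inducible Hspa1a and Hspa1b, at 0 to 16.9 CPM in any library. Some members had been seen in earlier results of these data. Leaving those out, 13 of 24 members lay above 0, with a median of 0.13. Of the 24, 2 had an unadjusted p under 0.05, both higher, and 1 without replicate 4. Hspa5, the chaperone BiP of the endoplasmic reticulum, was at 177 to 336 CPM against 109 to 171 CPM without overlap (0.75 ± 0.26), in a list of 22 stress genes with 15 above 0 and a median of 0.18.

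The AP-1 members Fos and Jund were higher in every EDA-labelled library. Fos was at 20.3, 10.1, 14.2, 46.3 and 10.6 CPM against 5.69, 5.78, 3.18, 2.33 and 7.05 CPM (2.08 ± 0.67). Jund was at 67.1, 85.3, 74.3, 154 and 79.2 CPM against 52.4, 52.9, 61.5, 48.3 and 31.8 CPM (0.90 ± 0.32). Replicate 4 was highest for both, and without it the fold changes were 1.52 ± 0.64 and 0.63 ± 0.28. Immediate early genes, which respond to stimuli within minutes, had 15 of 20 members above 0 (median 0.45). Egr1 (0.99 ± 0.64) and Jun (0.43 ± 0.38) overlapped, and Nr4a1 lay on the other side (-1.55 ± 0.82). Egr1 was at 178 CPM in replicate 4 and 22.0 to 62.2 CPM in the other EDA-labelled libraries, and its fold change without replicate 4 was 0.20.

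The remaining leading higher genes had varied roles. Bach2, a transcriptional repressor of the AP-1 type, was at 98.3 to 248 CPM against 40.9 to 87.2 CPM without overlap (1.42 ± 0.38). Its antisense transcript Bach2os, chosen after its values were seen, was at 4.78 to 19.2 against 0.927 to 4.17 CPM (2.06 ± 0.69). The library kit keeps no strand, so reads of these 2 genes cannot be told apart where they overlap. Runx1, a transcription factor, was at 35.2 to 88.0 CPM against 16.2 to 39.2 CPM (1.32 ± 0.37), Sytl2, a vesicle transport protein, at 86.4 to 242 against 47.9 to 115 CPM (1.18 ± 0.31), and Anapc2, a subunit of the anaphase-promoting complex, at 148 to 298 against 78.0 to 118 CPM (0.94 ± 0.26). Rcan1, an inhibitor of calcineurin, was at 378 to 460 CPM in 4 EDA-labelled libraries, 68.6 CPM in replicate 4 and 121 to 242 CPM in controls. Its fold change was 0.96 ± 0.39 with replicate 4 and 1.22 ± 0.26 without, where limma voom with quality weights called it (adjusted p = 0.0188). Akap2, a kinase anchor, was at 1.95 CPM in replicate 4 and 22.2 to 79.6 CPM in the other 4, against 9.57 to 24.1 CPM (1.28 ± 0.57, and 1.59 ± 0.37 without replicate 4). The cell cycle brake Cdkn1a, chosen after its values were seen, did not overlap by a small gap (130 to 232 against 47.0 to 130 CPM, 0.89 ± 0.38). Without replicate 4, Cdkn1a was at 0.74 ± 0.38 (unadjusted p = 0.066 in edgeR).

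**Figure D3:**
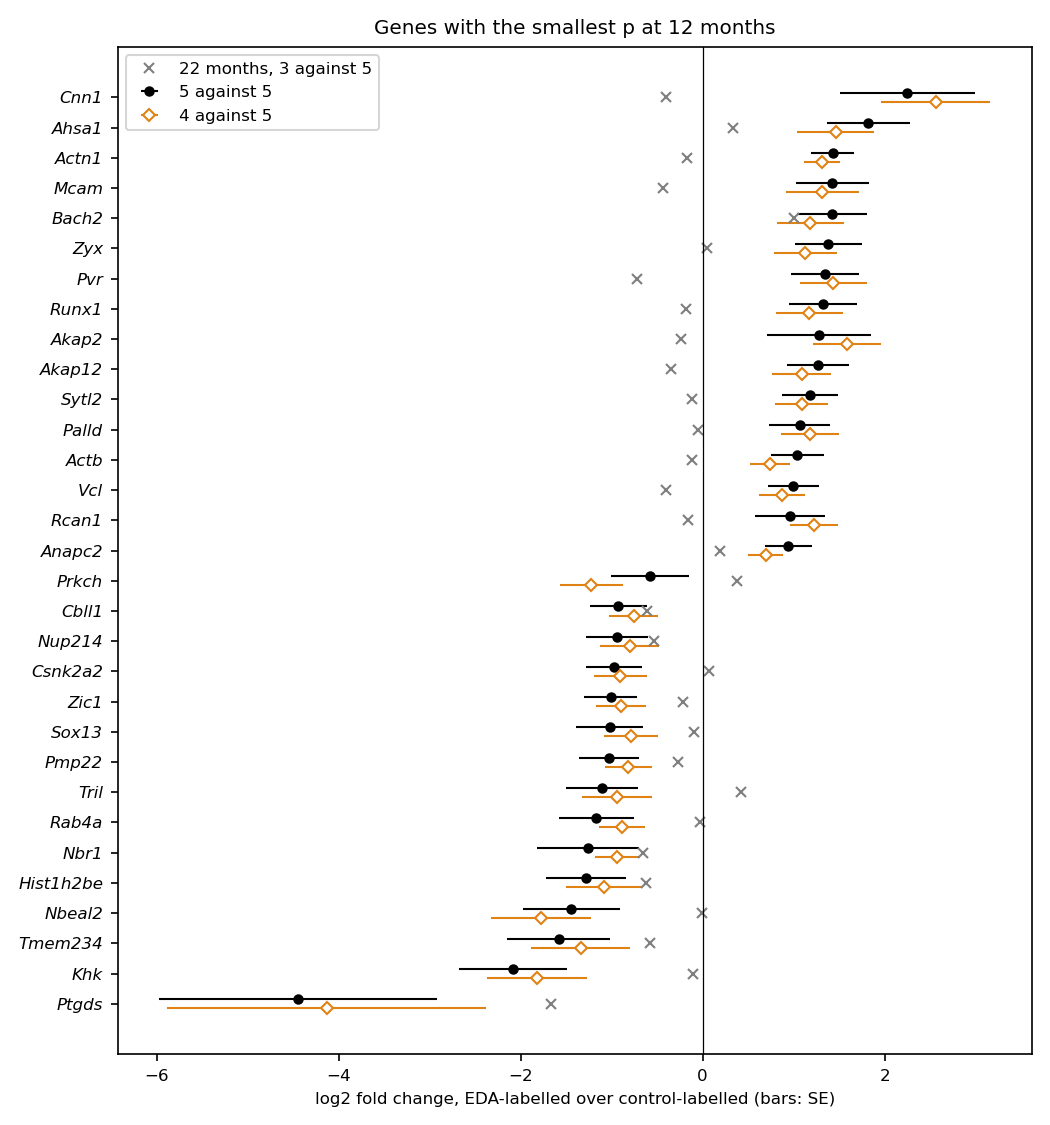
Log2 fold change (EDA-labelled over control-labelled) of the genes with the smallest p, with all 5 EDA-labelled libraries (filled circles), without replicate 4 (diamonds) and at 22 months (crosses), with bars of 1 SE. Higher and lower genes keep their side without replicate 4, which their choice by these fits and the shared libraries made likely. Of the 12 leading higher genes with all libraries 4 are also above 0 at 22 months.

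Among genes lower in EDA-labelled libraries the leading one was Khk, for ketohexokinase, the first enzyme of fructose breakdown. It stood at 7.43, 13.9, 7.62, 1.20 and 2.24 CPM against 24.8, 28.2, 51.6, 18.9 and 13.8 CPM. EDA-labelled replicate 2 met the lowest control and the others lay below all controls (-2.09 ± 0.59, and -1.82 ± 0.55 without replicate 4). The 26 genes of fructose, glucose and lactate metabolism had 16 above 0 and a median of 0.19 (0.02 without replicate 4). The 1 member with an unadjusted p under 0.05 was Khk, where 1.59% of all genes were lower at such a p. Aldoc, the aldolase of astrocytes, was chosen after its values were seen and lay at 18 to 214 CPM against 224 to 402 CPM with no overlap (-1.22 ± 0.59).

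Zic1, a transcription factor of meninges and their neighbours, was at 49.2, 54.6, 46.5, 28.1 and 34.3 CPM against 67.7, 77.0, 109.5, 60.3 and 115 CPM. Every EDA-labelled library was below every control (-1.01 ± 0.30). Ptgds, for prostaglandin D synthase of the meninges, was at 659.8 CPM in control replicate 5, far above the 0.189 to 21.5 CPM of the other 9. Its fold change was -4.45 ± 1.52 with that library and -1.18 without it. Dpp4 and Crabp2 likewise had their highest values there, at 8.36 and 17.8 CPM. Of 18 meningeal and scleral fibroblast markers 6 lay above 0, with a median of -0.31 (-0.16 without replicate 4 and -0.09 without control replicate 5). Their sum was 685 to 1425 CPM against 938 to 2344 CPM, the top being control replicate 5.

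Pmp22, a myelin protein of Schwann cells, was at 83.6 to 323 CPM against 319.9 to 706 CPM, with EDA-labelled replicate 2 just inside the control range (-1.03 ± 0.33). The other 6 tested Schwann cell markers had 5 members above 0. S1pr3, a receptor of sphingosine 1-phosphate on reactive astrocytes, was at 532 to 724 CPM against 749.6 to 1230 CPM without overlap (-0.61 ± 0.23). The kinase subunit Csnk2a2 (12.0 to 19.1 against 20.2 to 32.7 CPM, -0.97 ± 0.31) and Cbll1, a ubiquitin ligase (22.3 to 61.8 against 64.8 to 111 CPM, -0.93 ± 0.31), did not overlap either. Nbr1, a receptor for selective autophagy, was at 0.567 CPM in replicate 4 and 27.5 to 50.5 CPM in the other 4, against 55.9 to 87.5 CPM (-0.94 ± 0.24 without replicate 4). Rab4a, which recycles endosomes, was at 3.53 CPM in replicate 4 and at -0.89 ± 0.26 without it. Prkch, a protein kinase C, was at 50 CPM in replicate 4 and 11.5 to 15.6 CPM in the other 4, against 16.2 to 51.2 CPM (-1.23 ± 0.35 without replicate 4 and -0.58 ± 0.43 with it).

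Phb, for prohibitin, was at 0.063 CPM in replicate 4 and 2.08 to 3.84 CPM in the other 4, against 6.17 to 11.4 CPM without overlap (-1.91 ± 0.77), and was chosen after its values were seen. The other lower genes among the leading ones overlapped between labels. Sox13 (-1.02 ± 0.37) and the histone gene Hist1h2be (-1.28 ± 0.44) were among them, the latter uncertain because histone genes are near-identical copies. So were Tril, an accessory protein of Toll-like receptor signalling (-1.11 ± 0.40), Nup214 of the nuclear pore (-0.94 ± 0.34), Tmem234 (-1.58 ± 0.57) and Nbeal2 (-1.44 ± 0.53).

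Astrocyte and immune genes followed replicate 4 in part. Gfap was at 10220, 10300, 11620, 29490 and 9759 CPM against 12580, 9731, 5350, 10090 and 7479 CPM. Replicate 4 alone lay above the controls, and the fold change was 0.66 ± 0.34 with it and 0.21 ± 0.24 without. Reactive astrocyte genes had a median of 0.58 (0.36 without replicate 4) with 15 of 25 above 0. An unadjusted p under 0.05 was reached by 4 higher members and 1 lower, S1pr3, where 2.96% and 1.59% of all genes did. Without replicate 4 it was reached by 1 higher member and by S1pr3. Nes, an intermediate filament of immature and reactive cells, was chosen after its values were seen. It was at 180 to 267 against 90.6 to 172 CPM (0.67 ± 0.32). Without replicate 4 it was at 0.57 (unadjusted p = 0.0808 in edgeR). Homeostatic astrocyte genes had 6 of 16 above 0 (median -0.21, and -0.26 without replicate 4), with Ndrg2 at -0.70 ± 0.33. Without replicate 4, Ndrg2 was at -0.50 ± 0.27 (unadjusted p = 0.0791 in edgeR).

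The complement gene C1qa, which starts the classical cascade, was at 202 and 308 CPM in EDA-labelled replicates 3 and 4, 43.5 to 52.3 CPM in the other 3 and 33.8 to 77.9 CPM in controls. It was 1.44 ± 0.55, and 0.84 ± 0.50 without replicate 4 (unadjusted p = 0.108 in edgeR). C2 was at 1324 CPM in replicate 4 and 168 to 510 CPM in the other 9 (1.14 ± 0.50, and 0.42 ± 0.40 without). Complement genes had 10 of 17 above 0, and their median of 0.54 went to 0.20 without replicate 4. With that library 3 of them had an unadjusted p under 0.05, all higher, where 2.96% of all genes were. Without it none did, where 2.29% of all genes were higher at such a p. Microglial markers had 8 of 21 above 0 (median -0.22, and -0.52 without EDA-labelled replicate 3) and summed to 1854 to 3437 against 2051 to 3264 CPM. Interferon response genes had a median of -0.68 with 8 of 31 above 0, with 0 at an unadjusted p under 0.05, and control replicates 2 and 5 summed highest, at 2125 and 1700 CPM against 507 to 1039 CPM in the other 8.

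Myelin transcripts varied widely between the libraries of both labels. All 20 tested oligodendrocyte and myelin genes lay above 0, with a median of 1.17. Yet 2 had an unadjusted p under 0.05, where 2.96% of all genes were higher at such a p. These were Mal (1.33 ± 0.53) and Olig2, which was at 0 in 8 of 10 libraries. Mbp, myelin basic protein, was at 187, 235, 7228, 948 and 1277 CPM against 1596, 2302, 326, 79.9 and 97.8 CPM (1.17 ± 1.08). EDA-labelled replicate 3 was highest and the control replicates 4 and 5 lowest. Without EDA-labelled replicate 3 the list median was 0.27 and the fold changes of Mbp and Mog were below 0, at -0.41 and -1.41. At 22 months 1 of 20 members was above 0, with a median of -1.56.

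**Figure D4:**
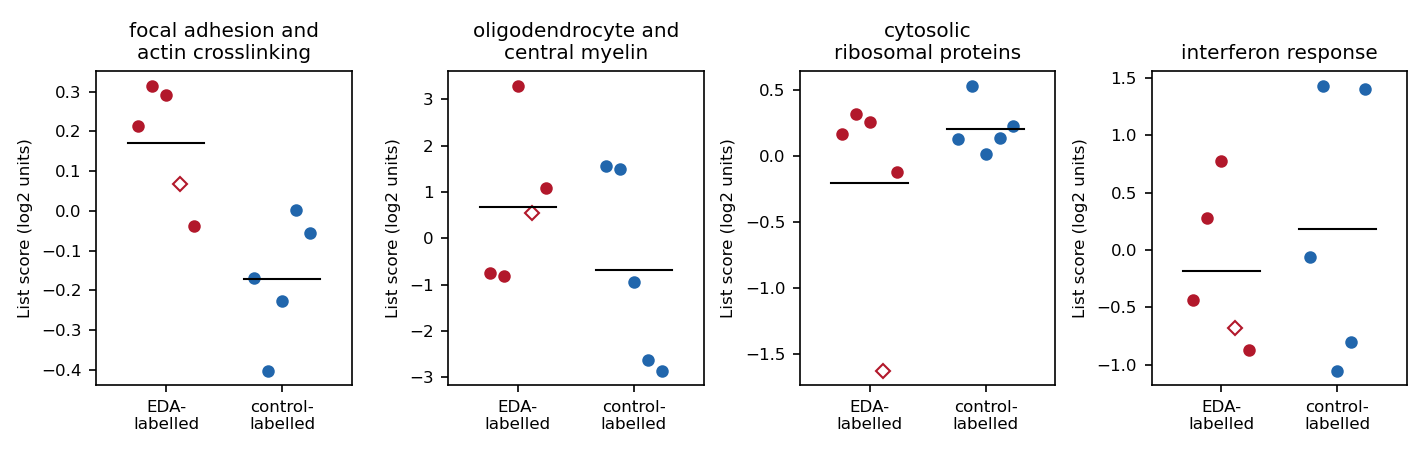
List score per library (log2 CPM relative to each gene's average in the 10 libraries, averaged over members) for 4 gene lists, with a line at each group's mean and EDA-labelled replicate 4 as an open diamond. Adhesion scores are shifted with an overlap, myelin scores span -0.80 to 3.30 in EDA-labelled and -2.86 to 1.56 in control-labelled libraries, and the ribosomal score of replicate 4 is -1.63.

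Ribosomal protein genes were lowest in replicate 4. Of the 63 tested, 18 lay above 0 (median -0.47, or -0.24 without that library). It scored -1.63, below the -0.13 to 0.31 of the other EDA-labelled and the 0.01 to 0.53 of the control-labelled libraries. Mitochondrially encoded genes had 4 of 12 members above 0 (median -0.09, and 0.10 without EDA-labelled replicate 5). Endothelial markers had a median of 0.20 that went to -0.34 without replicate 4, which held 1293 CPM of them against 383 to 736 CPM in the other 9. Leaving out 1 of the 12-month libraries turned the sign of the median in 17 of the 34 lists.

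**Figure D5:**
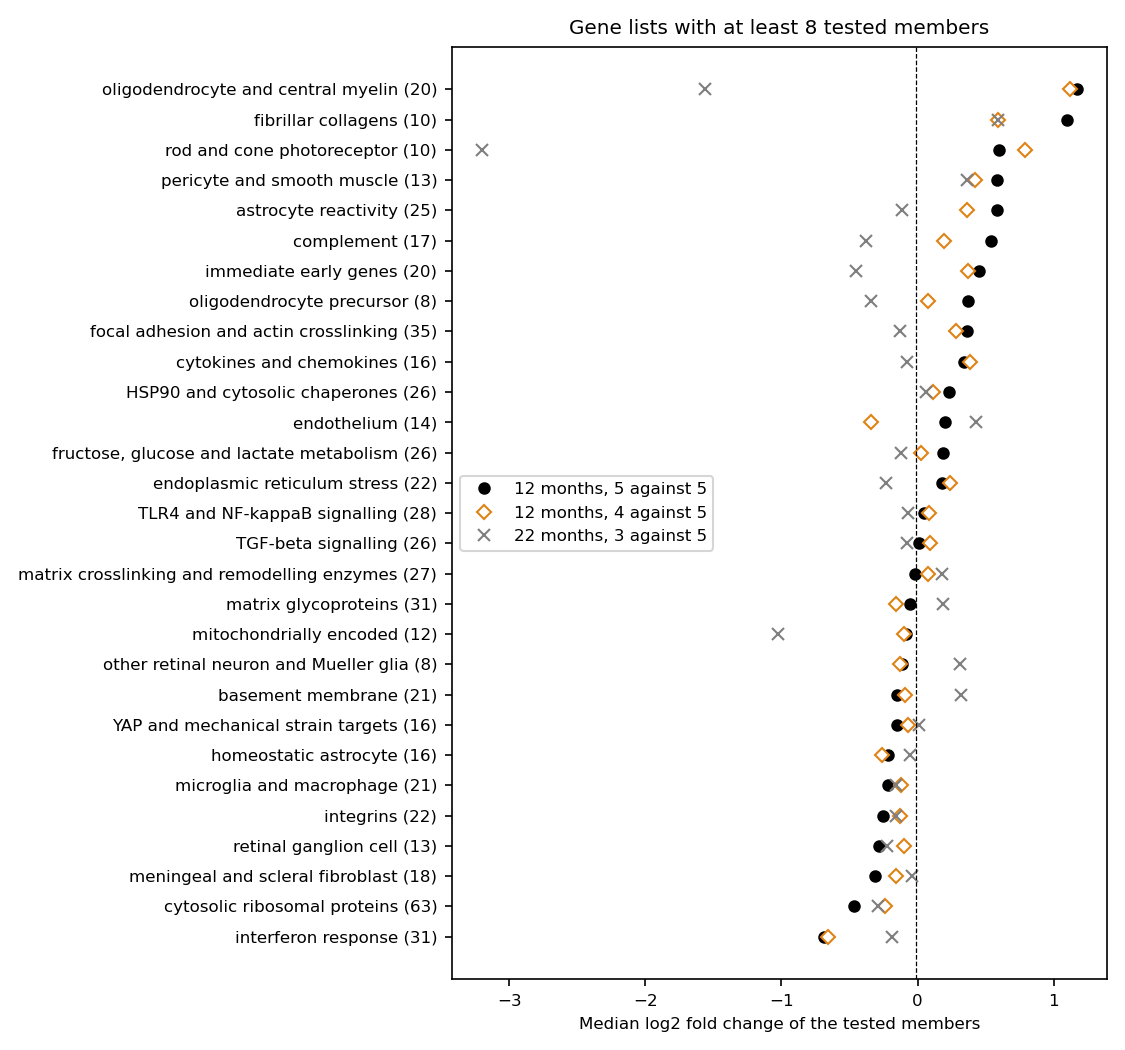
Median log2 fold change (EDA-labelled over control-labelled) of 29 gene lists with at least 8 tested members, the number in brackets, at 12 months with and without EDA-labelled replicate 4 and at 22 months, with the median of all genes at 12 months as a dashed line. Complement, fibrillar collagen, ribosomal and adhesion medians move toward the line without replicate 4, the last from 0.37 to 0.28.

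The lists above can be read against the age of 22 months, whose 3 EDA-labelled and 5 control-labelled libraries are separate from these 10. There Actn1 was at -0.18 ± 0.27, and the difference between the ages had an unadjusted p of 0.000247 in edgeR. That test reuses the 12-month values by which Actn1 was picked, so its p is not independent of the choice. No gene of 15118 was called for a difference between ages in edgeR, and 608 had an unadjusted p under 0.05. The adhesion list had a median of -0.13 with 15 of 35 above 0 at 22 months. Of the 12 leading higher genes 4 were above 0 at that age, with Bach2 at 1.01 ± 0.43 the one with an unadjusted p under 0.05. Of the 12 leading lower genes 10 were below 0. Among all 448 higher genes 48.2% were above 0 at 22 months, where 46.2% of all genes were, and among the 241 lower genes 61.4% were below 0, where 53.8% of all genes were.

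Calls by the other tests rested largely on scarce transcripts. DESeq2 called 20 genes, 15 of them higher, and 17 of the 20 were under 15 CPM in all 10 libraries. The 3 above that level were Actn1, Ahsa1 and Csnk2a2. In 12 of the 20, every library of a group was at 0. Senp3, a SUMO protease chosen after its values were seen, was at 0.756 to 4.43 CPM in EDA-labelled and 0 to 0.108 CPM in control-labelled libraries. With all libraries, Actn1 and Senp3 were the calls of limma voom with quality weights (adjusted p = 0.0166 and 0.0401). Without replicate 4 DESeq2 called 16 genes, with Actn1, Cnn1 and Rcan1 the ones above 15 CPM in some library.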

How the data were processed

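Laser-captured tissue RNA was made into cDNA with SMART-Seq v4 and into unstranded Nextera XT libraries, aligned with STAR and quantified with RSEM by the authors, per the labels' protocols. The build GRCm39 is named in the submitters' processing notes; versions of those tools were not given in the sources used here, nor was the annotation. The deposited expected counts per gene (3.59% of values not whole) were rounded, and the deposited TPM of isoforms gave exon shares only. Symbols were found for 52083 of 55416 gene identifiers.

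Groups came from titles; replicates were numbered in accession order and pair nothing. All 18 libraries were fitted as 4 groups with edgeR 4.0.16 in R 4.3.3 (filterByExpr, TMM, quasi-likelihood test, Benjamini-Hochberg adjustment over all genes, threshold 0.05), and again without EDA-labelled replicate 4. The fit was also run on simulated counts with no odd library and with known changes larger than most fold changes above. That run therefore does not measure its power here. CPM are on TMM-scaled library sizes, and log2 CPM use a prior count of 2. Alternatives included DESeq2 1.42.0 and limma 3.58.1. The genes named are up to 12 higher and 12 lower with the smallest p and up to 6 each way without replicate 4, among genes averaging 2 log2 CPM or more, with a symbol that is no predicted model and at least 4 libraries of each group beyond the other group's median. Up to 2 members of each list with the smallest unadjusted p under 0.05, and Fn1, Tlr4, Gfap and C1qa, were added. Others are said to be chosen after their values were seen, or are members that complete a list. The 34 lists matched 752 of 755 genes. Members and lists were chosen with earlier results of these data known. Depth was 13097498 to 18488733 expected counts per library. Without a GRCm39 genome at hand, coordinates are those of the GRCm38 reference tables.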

Additional observations from a re-analysis of the deposited data

Results flagged for a closer look

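Of 216 values examined within a group of 5 libraries, 28 had 1 library whose gap to the nearest other, divided by the group's range, was over Dixon's critical value of 0.71. Chance gives about 1 in 20 groups. EDA-labelled replicate 4 was that library for 16 of the 28.

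In replicate 4 the high values, in log2 CPM, were Gfap at 14.85 (13.25 to 13.5 in the other 4), Anapc2 at 8.22 (7.21 to 7.33), Jund at 7.27 (6.07 to 6.42), Coro1b at 6.74 (4.93 to 5.45) and Prkch at 5.65 (3.54 to 3.97). Des was at -2.35, where the other 4 had no reads. Gfap took 3.46% of its reads, against 1.06% to 1.20%. The low values were Rcan1 at 6.10 (8.56 to 8.84), Ndrg2 at 4.17 (5.50 to 5.96), Rab4a at 1.87 (4.63 to 5.23), Nbr1 at -0.51 (4.79 to 5.66) and Phb, for prohibitin, at -2.35 (1.15 to 1.99). Its list scores were 1.22 for fibrillar collagens, -1.63 for ribosomal proteins, -0.94 for fructose, glucose and lactate metabolism and -0.93 for meningeal and scleral fibroblasts.

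In other EDA-labelled libraries, Ikbkb was at 3.06 log2 CPM in replicate 2 (4.26 to 4.63 in the rest) and the blood score at -0.76 there (0.40 to 0.62). Replicate 3 had Rps20 at 1.51 log2 CPM, where the other 4 had no reads, and 18488733 expected counts (1.849e+07).

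Among control-labelled libraries, replicate 5 had Actb at 10.31 log2 CPM (10.58 to 10.65), Csnk2a2 at 4.34 (4.87 to 5.04), Ptgds at 9.37 (3.23 to 4.44) and Rps20 at -2.30, where the rest had no reads. Hspg2 was at 5.25 log2 CPM in replicate 1 (5.94 to 6.15). Lcn2 was at -1.51 log2 CPM in replicate 4, where the rest had no reads, and the photoreceptor score there was 0.51 (-0.58 to -0.39). The score of fructose, glucose and lactate metabolism was -0.19 in replicate 2 (0.02 to 0.10).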

How the results depend on the processing

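Of 22 alternatives, 19 were planned and 3 added after seeing the data. Against 0 genes called by edgeR, DESeq2 called 20 (16 without EDA-labelled replicate 4), limma voom with quality weights 2 (2 without it) and edgeR limited to means of 2 log2 CPM or more 1. Leaving out each library gave 0 to 1 calls. Against 689 genes at an unadjusted p under 0.05, there were 375 with 12-month libraries only (442 without replicate 4), 1092 by limma (1073 without it), 329 limited to means of 2 log2 CPM or more, 2552 with no filter on low counts, and 551 to 741 leaving out each library. Genes without overlap went from 191 to 288 without replicate 4. Groups of 4 against 5 libraries separate by chance more often than 5 against 5, so these counts cannot be compared directly. The difference in EDA exon share was -17.2 to 7.95 percentage points leaving out each library, and turned to 7.95 without control replicate 5. For named genes, 1440 of 1459 values kept direction and side of the threshold, 14 passed it newly and 5 reversed. No gene was past the threshold in the main fit, so none could lose it. Many of these genes were picked by small p in the same libraries, so the counts do not measure robustness. Without EDA-labelled replicate 3 the log2 fold changes of Rps20 (-1.38), Mbp (-0.41), Mog (-1.41) and Tlr4 (-0.11) were below 0, and without control replicate 5 that of Fn1 was 0.43. Leaving out each library, these ran up to 6.05 (Rps20), 1.91 (Mbp), 1.45 (Mog) and 0.63 (Tlr4), and Fn1 down to -0.56. Of 748 list medians, 29 moved by at least the pooled SD of the list score within the groups. That limit is wide for lists whose scores vary much between libraries. Leaving out 1 of the 12-month libraries turned the sign of the median in 17 of the 34 lists. The cause was not tested. No paired analysis was possible because replicate numbers follow accession order and the labels carry none that pairs libraries. Counts limit what can be said of genes at a few reads, such as those DESeq2 called.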

Other observations

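The following 6 genes, in no list, were higher in every EDA-labelled library than in every control. They were chosen after their values were seen, and none passed adjustment in edgeR. Rhoj, a small GTPase of endothelial cells, had a log2 fold change of 0.84 ± 0.25, Qk, an RNA-binding protein of glia, 0.71 ± 0.23, Glipr2 1.07 ± 0.33, C1ql3 1.32 ± 0.40, Txlna 1.53 ± 0.47 and Cdsn 1.28 ± 0.37.

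Lists of other cell types had no member that passed adjustment in edgeR. Retinal ganglion cell genes had 5 of 13 members above 0 (median -0.28, and -0.10 without EDA-labelled replicate 4), other retinal neuron and Mueller glia genes 3 of 8 (-0.11, and 0.20 without EDA-labelled replicate 5) and oligodendrocyte precursor genes 7 of 8 (0.37, and 0.08 without EDA-labelled replicate 4). Photoreceptor genes had 7 of 10 above 0 (0.60), pigment cell genes 3 of 4 (0.20, and -0.37 without replicate 4), skeletal muscle genes 4 of 6 (0.60) and blood genes 3 of 5 (0.74, and -0.33 without replicate 4), all at summed levels under 68 CPM. Cytokines and chemokines had 10 of 16 above 0 (0.34, and -0.03 without EDA-labelled replicate 3), and MHC class II genes 4 of 6 (0.28, and -0.16 without replicate 4).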
